A study of Mus musculus with 2 samples.

Results

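CD45 and 9 other genes that set how strongly receptors signal in lymphocytes were described in mouse thymus. They were taken by symbol from a fixed list and matched by gene ID, and all 10 were found among the 43346 genes of the deposited tables, with 56 of 103639 transcripts. Of the 10 genes, 9 encode phosphatases or relatives of phosphatases, and Ptprcap encodes a protein bound to CD45. RNA was sequenced from whole thymus of C57BL/6J mice, an inbred strain, aged 8 weeks. The 2 libraries are 1 group: the labels give each as adult tissue pooled from males and females, drawn from littermates, and name no treatment, mutation or control. The libraries are stranded, were made from polyadenylated RNA and hold 49.3 and 63.1 M estimated fragments. The labels give a separate biosample for each library but the same donor entry, so the spread between them may be technical in part, and no difference between conditions can be tested.

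Signals from the T cell receptor begin when Src family kinases phosphorylate the receptor's CD3 and zeta chains and the kinase Zap70. CD45, the product of Ptprc, is a transmembrane phosphatase that removes the inhibitory phosphate from the tail of the Src kinases Lck and Fyn, and it can also remove activating phosphates, so it can raise or lower the signal. In the thymus the strength of this signal decides between survival and death of developing T cells. Part of the outer domain of CD45 is encoded by exons named A, B and C, which are included or skipped by alternative splicing. The form that lacks all of them is called CD45RO, and antibodies to CD45RA, CD45RB and CD45RC recognise forms that keep the exon of that letter.

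The exons on which the CD45 results turn are shown because their use was measured below. Ptprc lies on the minus strand of chromosome 1 on GRCm38 (mm10). In the complete coding transcript Ptprc-207, exon A is exon 4 (chr1:138122456-138122584, 129 bases), exon B is exon 5 (chr1:138120020-138120166, 147 bases) and exon C is exon 6 (chr1:138117754-138117894, 141 bases). Exon 7 (chr1:138116954-138117025, 72 bases) is also skipped by an annotated transcript. Each is coding throughout and a multiple of 3 bases long. Sequences run 5′ to 3′ and come from GENCODE M21 transcripts, with the exon in capitals and 15 bases of an exon it is joined to on each side. The last line joins the whole of exon 3 to exon 7, the join that leaves out A, B and C.
Ptprc exon A: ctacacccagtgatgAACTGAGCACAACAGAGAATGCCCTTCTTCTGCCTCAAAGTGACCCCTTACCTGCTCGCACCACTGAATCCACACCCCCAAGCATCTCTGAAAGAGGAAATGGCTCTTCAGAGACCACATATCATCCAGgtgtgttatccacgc
Ptprc exon B: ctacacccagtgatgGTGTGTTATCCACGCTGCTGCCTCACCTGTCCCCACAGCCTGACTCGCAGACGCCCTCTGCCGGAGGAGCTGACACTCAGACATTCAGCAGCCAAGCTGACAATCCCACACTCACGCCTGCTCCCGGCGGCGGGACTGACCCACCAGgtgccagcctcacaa
Ptprc exon C: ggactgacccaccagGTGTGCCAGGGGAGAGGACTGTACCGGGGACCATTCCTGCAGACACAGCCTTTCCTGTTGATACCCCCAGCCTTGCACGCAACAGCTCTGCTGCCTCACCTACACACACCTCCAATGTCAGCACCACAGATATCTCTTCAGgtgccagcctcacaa
Ptprc exon 3 to exon 7: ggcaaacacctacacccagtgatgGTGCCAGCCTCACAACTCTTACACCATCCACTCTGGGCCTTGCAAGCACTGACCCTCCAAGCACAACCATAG
Exon B was the richest of the 4 in G and C, at 63.9%, against 50.4% in exon A, 56.7% in exon C and 55.6% in exon 7.

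Levels are given in TPM, in which fragments are scaled by transcript length and by library. All 10 genes averaged 1 TPM or more, and 7 of 10 averaged 10 TPM or more. Among all 14360 genes averaging 1 TPM or more, 8171 reached 10 TPM (56.9%). The median of the 10 genes was 45.1 TPM, against 13.6 TPM for all those genes. In a whole tissue, fewer cells of a type and less RNA per cell cannot be told apart.

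Ptprcap (chr19:4153604-4156751, plus strand), which encodes the lymphocyte phosphatase-associated phosphoprotein and has no phosphatase domain, was at 1235 and 1275 TPM (mean 1255 ± 28.2, SD, n = 2, as for each SD below). Ptprc itself (chr1:138062861-138175708) was at 393 and 386 TPM (389 ± 4.51), from 29874 and 43662 fragments. Ptprcap thus stood 3.15 and 3.30 times above Ptprc per length in replicates 1 and 2, and the ranges did not overlap. This ratio depends on length and on which transcripts are counted. Over transcripts with a complete coding sequence it was 12.4 and 12.1, over the longest transcript 6.38 and 6.24, and in CPM, which scales fragments by library and not by length, 1.03 and 1.01. The complete coding transcripts of Ptprc leave out the form that keeps exon B without A and C. Over all its exons in GENCODE M21, Ptprcap also shares 432 bases with Coro1b on the same strand and 1224 with Rps6kb2 on the other strand. How many of these lie in the 927-base transcript measured here was not tested. How reads were split, mainly with Coro1b since the libraries are stranded, may limit its value. Coro1b was at 403 and 369 TPM and Rps6kb2 at 72.5 and 70.5 TPM.

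The protein-coding genes whose levels lay nearest to Ptprc in the 2 libraries were Snrpb, Flna, Dazap2, Mxd4 and Selplg, at distances of 0.023 to 0.050 on the log2(TPM + 1) scale. With 2 libraries of 1 tissue this is likeness of level and not of a pattern.

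Of the cytosolic phosphatases, the MAP kinase phosphatase Ptpn7 (HePTP; chr1:135132700-135145317, plus strand), which acts on ERK and p38, was at 230 and 172 TPM (201 ± 40.8). Ptpn6 (SHP-1; chr6:124720707-124738714, minus strand), which is drawn to inhibitory receptors through its SH2 domains and damps the signal, was at 178 and 166 TPM (172 ± 8.77). The ranges of Ptpn7 and Ptpn6 overlapped. In replicate 1 the deposited interval of Ptpn6 ran to 257 TPM, and the deposited posterior mean was 204 TPM. The transcript Ptpn6-207, of 198 bases, was listed at 0 TPM there with an upper bound of 79.3 TPM.

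Ptpn11 (SHP-2; chr5:121130533-121191397, minus strand), the paralog of Ptpn6 that is known for promoting Ras and ERK signalling, was at 27.7 and 23.6 TPM (25.6 ± 2.90). Ptpn6 exceeded it 6.44 and 7.03 times per length. In CPM the ratio was 2.35 and 2.57, as Ptpn11 transcripts are longer, averaging 5648 bases against 2196 for Ptpn6 in replicate 1. Ptpn22 (PEP; chr3:103859795-103912247, plus strand), which acts with the kinase Csk against Lck and Zap70, was at 23.4 and 23.7 TPM (23.6 ± 0.226) and overlapped with Ptpn11. Ptpn2 (TC-PTP), which acts on Jak kinases and Stat factors and on Lck and Fyn, was the lowest of the 10 by mean, at 4.42 and 4.58 TPM (4.50 ± 0.113) from 264 and 365 fragments.

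Ubash3a (STS-2) and Ubash3b (STS-1) are related proteins with a ubiquitin-binding domain and a phosphatase-like domain. Both restrain signalling at Zap70 and Syk, and Ubash3b is known as the far more active phosphatase. Ubash3a (chr17:31207873-31246892, plus strand) was at 77.3 and 52.1 TPM (64.7 ± 17.9) and Ubash3b (chr9:41011098-41161697, minus strand) at 6.30 and 5.50 TPM (5.90 ± 0.566), a ratio of 12.3 and 9.47. Over transcripts with a complete coding sequence the ratio was 8.95 and 8.13. Ptprj (CD148; chr2:90429754-90580647, minus strand), a transmembrane phosphatase that like CD45 can act on Src kinases, was at 5.46 and 3.97 TPM (4.72 ± 1.05). Its range overlapped that of Ptpn2, and its higher library lay just under the lower library of Ubash3b. Over the longest transcript this order turned round, with Ptprj at 7.91 TPM and Ubash3b at 5.56 TPM by mean. In CPM it did too, with means of 25.8 for Ptprj and 15.2 for Ubash3b.

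**Figure D1:**
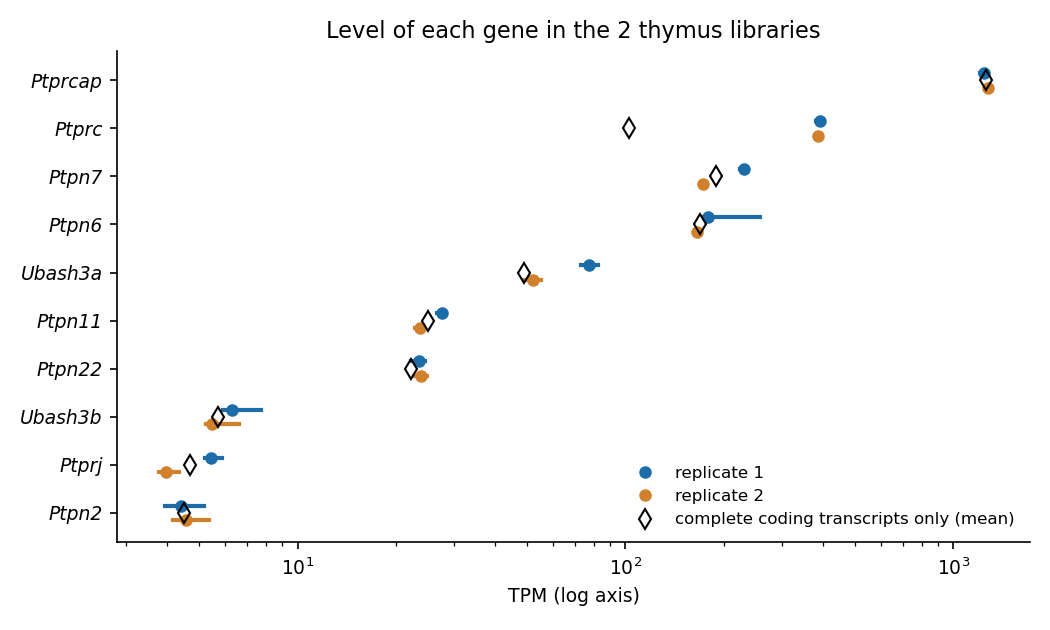
TPM of each gene (log axis) in replicate 1 and replicate 2, with the deposited interval of each value as a line and the mean over transcripts with a complete coding sequence as an open diamond. The 10 genes span 4.50 to 1255 TPM by mean, and the diamond of Ptprc, at 103 TPM, lies far left of its points at 393 and 386 TPM.

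Between the libraries, 0 of 10 genes were past 1.5-fold on the log2(TPM + 0.1) scale, where 12% of the 14360 genes averaging 1 TPM or more were. This compares 2 libraries and not conditions, so no p-value was computed. In replicate 2, 7 of the 10 were lower and 3 higher, with a median log2 ratio of -0.15, against -0.04 over all genes compared. Ubash3a had the largest difference, a log2 ratio of -0.57 or 1.48-fold, followed by Ptprj at -0.45 and Ptpn7 at -0.42. For Ubash3a the ratio of scaled counts was smaller, at -0.32 with edgeR's TMM factors. Its short transcript Ubash3a-202, annotated for nonsense-mediated decay, was at 13.5 TPM in replicate 1 and 2.52 TPM in replicate 2. Ubash3a-201, annotated with a complete coding sequence, was at 54.5 and 43.8 TPM.

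The markers of thymocytes summed to 3872 and 3941 TPM, and 8 of 8 were at or above 10 TPM. Of all genes averaging 1 TPM or more, 56.9% were. Markers of other cells were also read, and none of those listed was at 0 in both libraries. Macrophage markers, of which 5 of 5 reached 10 TPM, summed to 679 and 955 TPM, B cell markers to 83.0 and 68.0 TPM with 2 of 5, and granulocyte markers to 50.7 and 38.2 TPM with 2 of 5. Ptprc, Ptpn6 and Ptprj are also used by these cells, and the part of such cells in the levels was not tested. Fat markers summed to 537 and 290 TPM with 4 of 4 at that level and epithelial markers to 418 and 479 TPM with 5 of 5. Erythroid markers summed to 1318 and 1820 TPM with 1 of 3, endothelial markers to 62.0 and 62.3 TPM with 2 of 4, and dendritic cell markers to 33.4 and 36.7 TPM with 1 of 5.

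Splitting Ptprc by transcript changed the picture of its level. The transcript with the highest share of its TPM was Ptprc-213, at 45.8% and 41.3% (mean 43.5%). This model is 702 bases long with 8 exons, keeps exons B and 7, skips A and C, and has an incomplete coding sequence. Ptprc-210, a single stretch of 3384 bases annotated as a retained intron (chr1:138117337-138120720), held 22.8% and 24.9%. It runs across exons B and C and the intron between them. Ptprc-203, the complete coding transcript that skips A, B and C and keeps exon 7, as in CD45RO, held 21.1% and 23.3%.

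The other complete coding forms were minor. Ptprc-207, which keeps A, B, C and 7, held 3.09% and 2.66%, and Ptprc-204, which skips all 4 exons, held 1.26% and 1.38%. The remaining 8 transcripts held at most 3.42% each by mean, the highest being Ptprc-205, of 364 bases.

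By fragments instead of TPM the order turned round. Ptprc-203 then held 43.7% and 45.0% of the gene's fragments, Ptprc-210 33.4% and 33.9%, and Ptprc-213 10.3% and 8.62%. A fragment on a short model counts for more TPM than one on a long model, so Ptprc-213 gained in TPM. Counted over transcripts with a complete coding sequence, Ptprc was at 99.96 and 105.6 TPM (103 ± 3.99), or 26.4% of its deposited level. By this measure Ptprc had rank 4 among the 10, below Ptpn7 (189 ± 40.4 TPM) and Ptpn6 (168 ± 8.77 TPM), in place of rank 2. No complete coding transcript in the annotation keeps exon B without A and C. The measure thus leaves out the form that Ptprc-213 stands for, and it is not the level of all coding CD45 RNA. With all fragments over the longest annotated transcript Ptprc was at 267 ± 14.1 TPM and had rank 2 by mean. Its values there, 256.6 and 276.5 TPM, overlapped those of Ptpn6, 264.1 and 251.0 TPM. The complete coding share of the others was 76.0% in Ubash3a and 93.7% or more in the other 8.

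**Figure D2:**
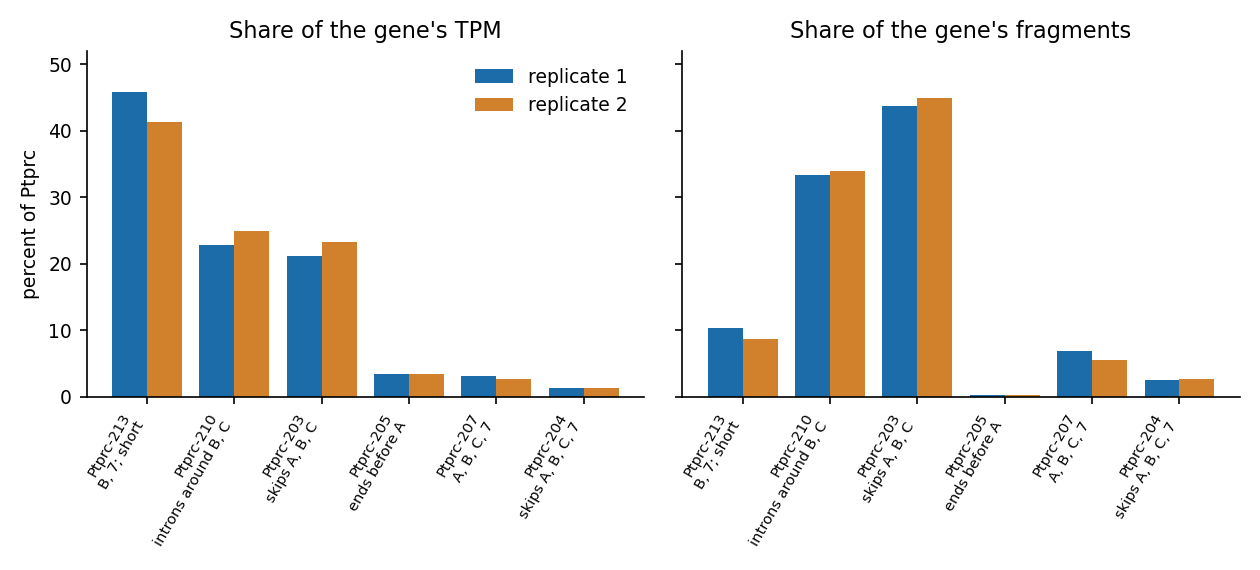
Share of Ptprc taken by its 6 leading transcripts, in percent of the gene's TPM (left) and of its fragments (right), with 1 bar for each library. Ptprc-213 leads in TPM at 45.8% and 41.3%, and Ptprc-203 leads in fragments at 43.7% and 45.0%.

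Splice junction reads gave a readout of the variable exons that does not rest on these transcript models' lengths. The counts used are those the authors pooled over both libraries. The list's 2 per-replicate entries were not used, so these values are given without replicates. Intervals (exact binomial, 95%) cover counting error only. A read can cross several joins and count at each. All 38 annotated introns of Ptprc were found with reads, and 99.1% of the 52838 junction reads in the gene lay on them.

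Reads leaving exon 3 went mainly to exon 7 or to exon B. Of 7310 such reads, 3592 went directly to exon 7 (49.1%, 48.0 to 50.3), the join printed above that leaves out A, B and C. Another 3260 went to exon B (44.6%, 43.5 to 45.7). The join to exon 8, which leaves out exon 7 as well, had 324 reads (4.43%). Exon C received 73 reads (0.999%) and exon A 61 reads (0.834%).

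Exon B was joined mostly without its neighbours. Of 2217 reads leaving it, 1763 went to exon 7 (79.5%, 77.8 to 81.2), 442 to exon C (19.9%, 18.3 to 21.7) and 12 to exon 8. Reads into exon C came mainly from B, with 442 of 518 (85.3%). Exon A was seldom used, and where it was, 119 of 122 reads went on to B. No read joined A to exon 7 (0 of 122, upper bound 2.98%).

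Counting both sides, exon A was included in 1.25% of reads (1.01 to 1.53), exon B in 41.2% (40.0 to 42.4), exon C in 9.20% (8.49 to 9.93) and exon 7 in 92.5% (91.7 to 93.3). The sides did not match for any of the 4 exons, as their counting intervals did not overlap. Exon B showed 45.8% by its upstream joins and 35.7% by its downstream joins. Exon 7 showed 94.7% upstream and 87.3% downstream, exon A 0.834% and 1.66%, and exon C 8.34% and 10.04%. The intervals above thus understate the uncertainty of each exon.

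**Figure D3:**
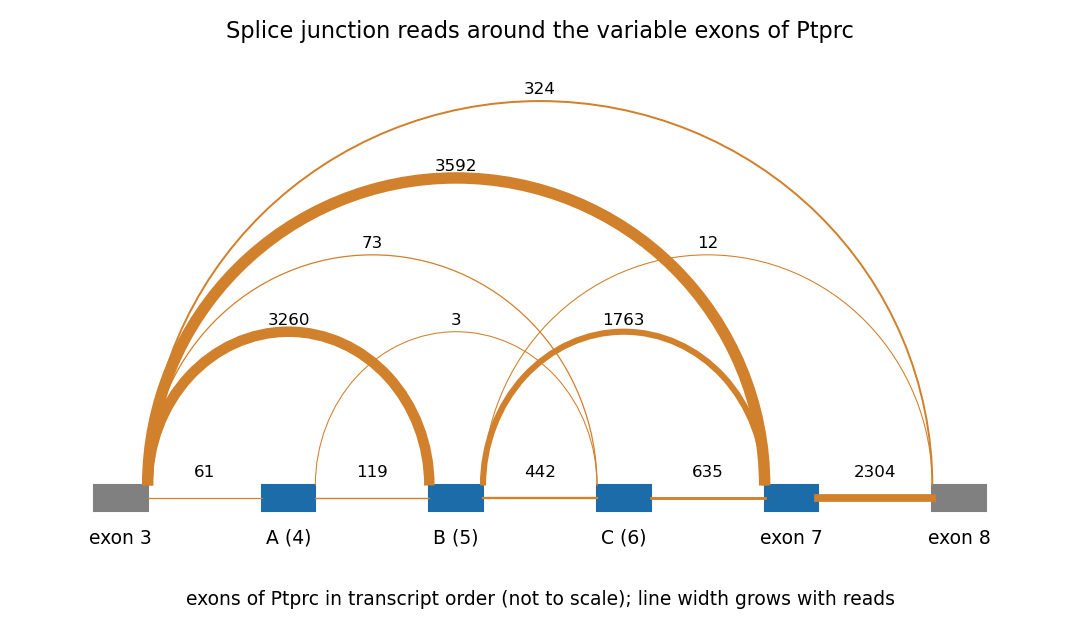
Pooled splice junction reads between exons 3 and 8 of Ptprc, with exons as boxes in transcript order (not to scale) and each join as a line whose width grows with its reads, printed beside it. The widest lines are exon 3 to exon 7 (3592 reads), exon 3 to B (3260), exon 7 to 8 (2304) and B to exon 7 (1763), while joins to or from exon A hold 61, 119 and 3 reads.

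Reads were far from even along the rest of Ptprc. The joins at introns 1 and 2 of Ptprc-207 had 3405 and 6834 reads, and those at introns 7 and 8 had 2304 and 2499. Introns 9 to 13 had 83 to 243 reads. Counts then stood at 1960 at intron 24 and at 7074 and 6904 at introns 31 and 32. Over the 25 joins from exon 8 on, the highest had 85.2 times the reads of the lowest.

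The GC content of the 50 bases on each side of a join moved with these reads. Over the 25 joins from exon 8 on, Spearman's rho was 0.73, given as a description since the joins share the libraries and their base composition. In the 8 other genes whose junctions were located it was 0.03 to 0.76, over 9 to 23 joins each. Joins with 0 reads were kept, with 2 in Ptprj-204, 1 in Ubash3a-201 and 1 in Ubash3b-206. Base composition also differs between the variable exons, and its part in the junction shares was not tested.

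**Figure D4:**
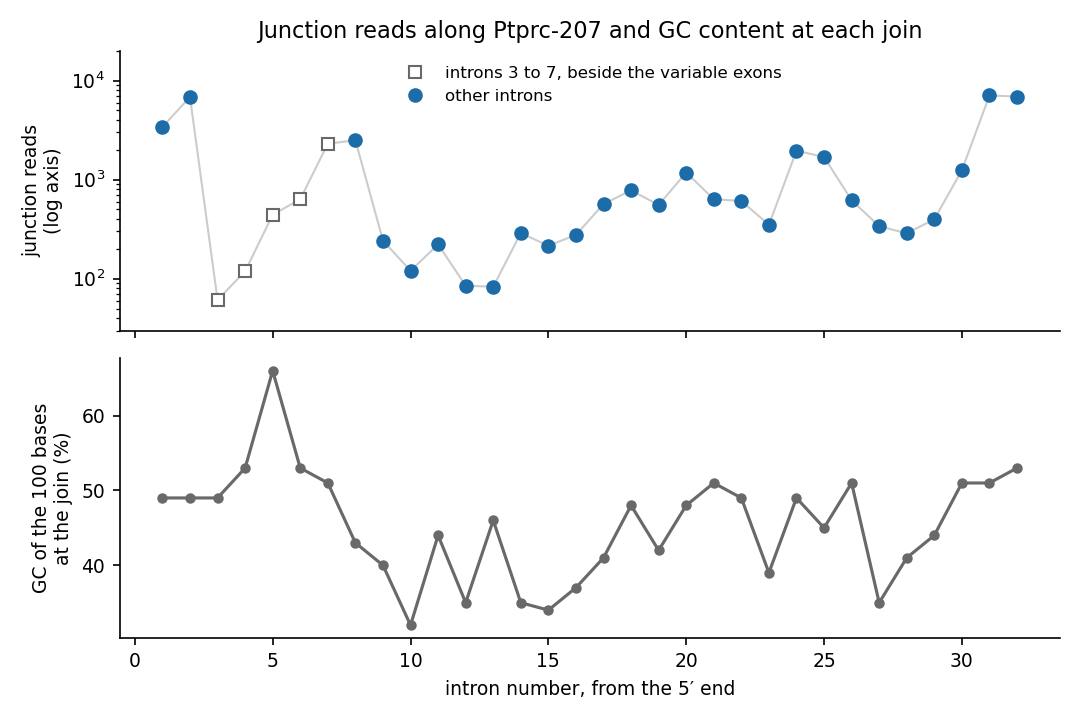
Pooled junction reads at each intron of Ptprc-207 (top, log axis) and GC content of the 100 bases around each join in percent (bottom), both against intron number from the 5′ end. Reads are high at intron 2 (6834) and introns 31 and 32 (7074 and 6904) and lowest outside the variable exons at introns 12 and 13 (85 and 83).

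The authors' contigs, stretches of continuous reads on mm9 with a level as the authors' own score, showed reads between the variable exons too. A single contig of 9464 bases held exons 4 to 8 at a level of 30.7 and covered introns 4 to 7 completely. The 48 contigs lying wholly inside intron 2, of 48688 bases, had a median level of 0.505 and a highest of 2.84. The contig of exon 3 was at 44.5, that of exon 9 at 8.90 and that of exon 10 at 2.09. Ptprc-210, of 3384 bases, covers a smaller stretch within it. Introns 30 to 32 were also covered completely, by a contig of 7057 bases at 19.1, so complete cover was not particular to the variable exons. In the list unspliced RNA and mature RNA that keeps these introns cannot be told apart.

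For the other genes, junction reads were set beside the deposited transcript shares. Ptpn7 has 3 annotated donor sites for its first intron, and the first exons of Ptpn7-203 and Ptpn7-201 overlap. Of 4078 reads leaving these sites, Ptpn7-203 had 2232 (54.7%), Ptpn7-201 1076 (26.4%) and Ptpn7-202 770 (18.9%), and their shares of TPM came in the same order, at 60.7%, 19.1% and 13.7%. Ptpn6 started almost always at the first exon of Ptpn6-202, with 1257 of 1315 reads (95.6%, 94.3 to 96.6). The first exon of Ptpn6-201 and Ptpn6-203 had 58 reads (4.41%), although Ptpn6-201 was given 17.6% of the TPM.

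Ptpn11 has a pair of forms that differ by 12 bases at the start of an exon, printed here because the libraries and junctions put them near equal. On the minus strand of GRCm38, the exon after the join is chr5:121144530-121144696 in Ptpn11-201 and chr5:121144530-121144684 in Ptpn11-202, and the intron removed is chr5:121144697-121149102 and chr5:121144685-121149102 in those forms. Each line shows 30 bases before the join and the first bases of that exon, with those held by Ptpn11-201 alone in capitals.
Ptpn11-201 join: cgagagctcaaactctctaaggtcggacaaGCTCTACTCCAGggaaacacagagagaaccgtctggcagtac
Ptpn11-202 join: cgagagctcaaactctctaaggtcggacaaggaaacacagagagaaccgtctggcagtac
The longer form had 115 of 243 reads (47.3%, 40.9 to 53.8) and the shorter form 128 (52.7%). By TPM, Ptpn11-201 held 40.2% in replicate 1 and 54.5% in replicate 2, and Ptpn11-202 held 57.4% and 43.5%, so the leading form differed between the libraries. The deposited model of Ptpn11-201 has another length than the M21 model printed here, so its TPM share and the join may not describe the same model.

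In Ubash3b, tables and junctions went against each other. Ubash3b-206, of 2231 bases, was given 61.7% of the TPM and 36.3% of the fragments, but 0 of 107 reads (upper bound 3.39%) left its first exon. All 107 left the first exon of Ubash3b-201, of 6354 bases, which had 35.5% of the TPM. Ubash3a was led by Ubash3a-201 at 70.5% and 84.1% of TPM, and its short models Ubash3a-202 and Ubash3a-205 held 11.2% each by mean with 15 and 13 reads on introns of their own. Ubash3a-201 had 0 reads on the 1 intron of its own in M21, where its model has another length than in the tables, so these reads do not rank the models.

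Ptprj-204 held 100% and 87.9% of Ptprj TPM, Ptpn22-201 94.7% and 93.2% of Ptpn22 TPM, and Ptpn2-201 68.0% and 73.8% of Ptpn2 TPM with Ptpn2-203 at 31.97% and 26.2%. Ptprcap has 1 transcript in the table, and its 2 introns were too few to be located in the junction list. In Ptprj, 21 of 23 introns of Ptprj-204 had reads.

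The genes around these phosphatases give the scale of the pathway. Of 17 kinases and substrates at the receptor, 17 reached 10 TPM, with a median of 121 TPM. Among all 14360 genes averaging 1 TPM or more, 56.9% reached 10 TPM and 12% were past 1.5-fold between the libraries. Lck, the kinase that CD45 acts on, was at 1327 and 1454 TPM, the adaptor Lat at 1316 and 1214 TPM and the zeta chain Cd247 at 468 and 524 TPM, while the ubiquitin ligase Cblb was lowest, at 12.4 and 12.1 TPM. Of these 17, Cbl was past 1.5-fold, with a log2 ratio of -0.68.

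Of 19 genes for proteins that recruit SHP-1, SHP-2 or PEP, 10 reached 10 TPM and the median was 19.0 TPM. The share at 10 TPM over all genes averaging 1 TPM or more was 56.9%. The receptors Cd6, at 267 and 248 TPM, and Cd5, at 190 and 203 TPM, and the adaptor Sit1, at 158 and 189 TPM, were highest, and the adaptor Gab3 was lowest, at 2.21 and 2.40 TPM. Themis, a thymocyte protein that binds SHP-1, was at 39.8 and 39.7 TPM. None of the 19 was past 1.5-fold (0 of 19), where 12% of all genes averaging 1 TPM or more were.

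Of 26 other phosphatases, 25 averaged 1 TPM or more and 18 reached 10 TPM, with a median of 25.2 TPM over the 26. Among all genes averaging 1 TPM or more, 56.9% reached 10 TPM. Ptpn18, a relative of PEP, was at 672 and 557 TPM, a mean of 614 TPM, against 78.0 TPM over its longest annotated transcript. The lipid phosphatase Inpp5d (SHIP1) was at 256 and 221 TPM and the MAP kinase phosphatase Dusp10 at 186 and 161 TPM. Over their longest annotated transcripts Inpp5d averaged 90.8 TPM and Dusp10 155 TPM, so their order depends on the length used. The receptor phosphatase Ptpro was lowest, at 0.870 and 0.920 TPM. Of the 26, 3 were past 1.5-fold, where 12% of all genes averaging 1 TPM or more were. Among the 3 were Ptpn4 and Acp1, named after their values were seen, with log2 ratios of -1.03 and -0.67.

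Of 12 regulators of CD45 exon use, 12 reached 10 TPM, with a median of 116 TPM, where 56.9% of all genes averaging 1 TPM or more did. Ptbp1 was at 582 and 456 TPM, Hnrnpl, which represses the variable exons, at 466 and 444 TPM, and Srsf3 at 298 and 280 TPM. Hnrnpll, the paralog of Hnrnpl known for driving exon skipping in memory T cells, was at 31.7 and 24.1 TPM, and Gsk3b was lowest, at 27.7 and 19.8 TPM. Past 1.5-fold were 2 of the 12, where 12% of all genes averaging 1 TPM or more were. These 2 were Sfpq and Srsf1, named after their values were seen, with log2 ratios of -0.77 and -0.62. Over the same libraries the TPM share of Ptprc-213, which keeps exon B, was 45.8% and 41.3%, and a link between these values was not tested.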

How the data were processed

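Per the labels, the libraries are stranded paired-end Illumina libraries of polyadenylated RNA. The authors deposited, per library, a gene and a transcript table with expected counts (estimated fragments, not normalised), TPM, posterior mean TPM and interval bounds. Text deposited with them names mm10 and GENCODE M4; what aligner and quantifier were used is not given in those sources. The authors also deposited pooled lists on mm9: read counts per junction, a signal level per contig, and a reproducibility value for each, meanings taken from the values since the authors gave no header. Their 2 per-replicate entries were not used. Depth was 49.3 and 63.1 M fragments, and intervals cover counting error only.

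Symbols, gene models and sequences came from GENCODE M21 (GRCm38), matched by ID. Shares use TPM within a gene. Junctions of a gene were found in the mm9 list by the chain of its intron lengths (at least 5 introns, ends shifted by up to 2 bases summed), with no coordinates converted. Ptprc-204, Ptprc-203, Ptprc-207 and the like are M21 transcript names. All 13 Ptprc models had the same length in both releases, and Ubash3a-201, Ptpn11-201 and Ptpn22-201 did not. Levels over complete coding transcripts, or over the longest transcript, were added after seeing the data.

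The library comparison took log2(TPM + 0.1), replicate 2 over replicate 1, in genes averaging 1 TPM or more. Fold changes on this scale understate low genes. With 1 group no test was possible. The 1.5-fold calls, with counting error only, and the matching of intron chains were tested on simulated data, and the other steps were not. All 10 genes are named; of each list the highest 3, the lowest and any gene a result turns on are named, with the 5 nearest to Ptprc. A gene of the list of other phosphatases is not reported here by name. The genes and lists were chosen with earlier results of these data known. Rounded expected counts were scaled with edgeR 4.0.16 and DESeq2 1.42.0 in R 4.3.3 as alternatives. All else used scipy 1.17.1 and pandas 2.3.3 in Python 3.11.15.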

Additional observations from a re-analysis of the deposited data

How the results depend on the processing

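No paired analysis was possible because the 2 libraries form 1 group. Of 79 values recomputed under other settings for the main results, 53 stayed and 26 moved: levels, ratios and shares by the SD between libraries, inclusion by its counting interval, and counts by 1.5 times. Values were sorted only into these 2 kinds, so a change of direction was not assessed. The mean level of Ptprc was 399 TPM rescaled to genes, 267 TPM over the longest transcript and 103 TPM over complete coding transcripts, and 386 to 393 TPM without either replicate. The ratio of Ptpn6 to Ptpn11 (6.71) was 2.45 in CPM, 7.26 with posterior means and 7.90 over the longest transcript. The ratio of Ubash3a to Ubash3b (11.0) was 6.86 in CPM, 14.8 over the longest transcript and 8.57 over complete coding transcripts. By expected counts, Ptprc shares were 2.57% for Ptprc-204, 44.3% for Ptprc-203, 9.44% for Ptprc-213, 6.24% for Ptprc-207 and 33.6% for Ptprc-210. Among protein-coding transcripts alone they were 1.88%, 31.6%, 61.9% and 4.08% for the first 4. Inclusion by upstream and downstream joins was 0.834% and 1.66% for exon A, 45.8% and 35.7% for B, 8.34% and 10.04% for C, and 94.7% and 87.3% for exon 7. In the 5 other settings that kept all 10 genes and that fold, 0 of 10 were past 1.5-fold. Of all genes compared in those settings, 8.52% to 12.0% were. Among genes at 10 TPM or more it was 0 of the 7, against 6.74% of all such genes. At 2-fold it was 0 of 10, against 4.23% of all genes compared. By fragments, Ptprc-203 led Ptprc and Ubash3b-201 led Ubash3b, and in replicate 2 alone Ptpn11-201 led Ptpn11. Depth limits Ptpn2 most, at 264 and 365 fragments.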
